A study of Mus musculus with 2 samples.

Results

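Peak-dense loci are genes to which many separate regions of open chromatin were assigned. Here a locus was a gene symbol that at least 10 peaks of the wild-type (WT) regulatory T (Treg) cell list carried, with predicted gene models (symbols of the form Gm plus a number, or ending in Rik) left out. The rule found 85 loci among 12408 named genes with a WT peak, which is 0.685% of them, and these loci held 1076 of the 34440 WT peaks, or 3.12%. The loci were chosen by the number of WT peaks per gene, so that number is a description and supports nothing below. The measurements are ATAC-seq peaks, stretches of chromatin into which the Tn5 transposase inserts sequencing adapters. There was 1 WT library and 1 library with transketolase deleted (TKT cKO, called cKO below). Both came from CD4+CD25+YFP+ Treg cells of the spleen and lymph node. The donors were C57BL/6 females, 7 weeks old, that the labels call chimeric, and 50000 cells went into a reaction. The WT mice were Foxp3cre/+, and the cKO mice were Foxp3cre/+ TKTfl/fl, so both groups carry a Cre driven by Foxp3. The labels do not say how many mice went into a library. With 1 library per genotype no difference could be set against replicate spread and no p-value is given, and intervals below are Wilson 95% intervals that cover counting error only.

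Open chromatin in T cells lies at promoters, where transcription starts, and at enhancers, which sit in introns and between genes and are bound by factors such as the RUNX, ETS, NFAT and HMG-box proteins. Genes that set cell identity are often surrounded by many enhancers, and long genes with large introns also offer more room for peaks to be assigned to them. Treg cells depend on Foxp3 together with factors shared with other CD4 T cells, several of which are among these loci. Transketolase moves carbon units between sugar phosphates in the pentose phosphate pathway.

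The promoters of 3 loci show how different the starts of a peak-dense gene can be, so their reference sequences are given first. Each window runs from 250 bases before to 50 bases after a RefSeq transcription start (GRCm38.p6, the assembly of mm10), reads 5′ to 3′ on the minus strand of the chromosome, and has each CpG in capitals. Foxp1 has 3 such windows. The window with 44 CpG, at chr6:99028249-99028548, lay in a WT peak that a cKO peak also touched, though the cKO peak did not reach the window. The window with 5 CpG, at chr6:99266466-99266765, was touched by a peak in both libraries. The window with 13 CpG, at chr6:99520944-99521243, was touched by a WT peak and by no cKO peak. Runx1 has 2 windows, 1 with 35 CpG at chr16:92697280-92697579 and 1 with 2 CpG at chr16:92826025-92826324, and both lay inside WT peaks and were touched by cKO peaks. Mllt3 has 1 window with 29 CpG, at chr4:88033358-88033657, inside a WT peak and touched by a cKO peak, and 1 window with 4 CpG, at chr4:87806274-87806573, outside the peaks of both libraries.
Foxp1 window with 44 CpG: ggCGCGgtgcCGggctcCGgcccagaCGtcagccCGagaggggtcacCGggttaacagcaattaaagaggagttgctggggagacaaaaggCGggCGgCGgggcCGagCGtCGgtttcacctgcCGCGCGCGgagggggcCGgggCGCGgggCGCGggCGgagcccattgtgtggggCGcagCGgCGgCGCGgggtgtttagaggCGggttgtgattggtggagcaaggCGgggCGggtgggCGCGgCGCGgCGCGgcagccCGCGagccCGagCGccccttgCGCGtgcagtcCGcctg
Foxp1 window with 5 CpG: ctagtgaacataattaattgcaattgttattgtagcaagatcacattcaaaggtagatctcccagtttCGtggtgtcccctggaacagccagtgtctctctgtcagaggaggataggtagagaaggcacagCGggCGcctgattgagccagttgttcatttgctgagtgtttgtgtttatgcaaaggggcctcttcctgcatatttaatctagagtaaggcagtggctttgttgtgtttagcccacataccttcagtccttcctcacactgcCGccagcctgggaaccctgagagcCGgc
Foxp1 window with 13 CpG: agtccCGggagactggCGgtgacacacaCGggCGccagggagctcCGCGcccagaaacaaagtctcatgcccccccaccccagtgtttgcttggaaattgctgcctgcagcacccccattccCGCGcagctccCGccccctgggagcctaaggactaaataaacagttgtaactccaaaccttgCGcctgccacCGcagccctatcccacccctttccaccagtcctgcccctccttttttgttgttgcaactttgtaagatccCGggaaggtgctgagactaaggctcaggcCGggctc
Runx1 window with 35 CpG: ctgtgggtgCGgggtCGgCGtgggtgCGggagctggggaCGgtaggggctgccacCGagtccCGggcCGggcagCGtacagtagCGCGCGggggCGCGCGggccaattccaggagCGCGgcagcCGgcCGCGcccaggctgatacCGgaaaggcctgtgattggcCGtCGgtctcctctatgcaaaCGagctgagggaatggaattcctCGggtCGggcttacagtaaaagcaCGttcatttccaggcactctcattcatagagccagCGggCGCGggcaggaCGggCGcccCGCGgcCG
Runx1 window with 2 CpG: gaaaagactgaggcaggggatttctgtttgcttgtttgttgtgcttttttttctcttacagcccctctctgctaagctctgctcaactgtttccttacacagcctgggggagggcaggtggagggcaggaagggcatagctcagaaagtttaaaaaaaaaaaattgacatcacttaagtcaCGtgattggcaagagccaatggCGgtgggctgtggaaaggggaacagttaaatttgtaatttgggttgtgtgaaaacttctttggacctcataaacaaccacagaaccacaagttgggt
Mllt3 window with 29 CpG: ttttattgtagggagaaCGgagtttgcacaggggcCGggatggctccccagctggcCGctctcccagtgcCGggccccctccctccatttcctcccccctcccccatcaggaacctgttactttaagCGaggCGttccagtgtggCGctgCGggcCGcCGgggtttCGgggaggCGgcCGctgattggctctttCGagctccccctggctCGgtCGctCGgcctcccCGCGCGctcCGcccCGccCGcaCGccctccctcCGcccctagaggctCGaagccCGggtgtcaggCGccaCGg
Mllt3 window with 4 CpG: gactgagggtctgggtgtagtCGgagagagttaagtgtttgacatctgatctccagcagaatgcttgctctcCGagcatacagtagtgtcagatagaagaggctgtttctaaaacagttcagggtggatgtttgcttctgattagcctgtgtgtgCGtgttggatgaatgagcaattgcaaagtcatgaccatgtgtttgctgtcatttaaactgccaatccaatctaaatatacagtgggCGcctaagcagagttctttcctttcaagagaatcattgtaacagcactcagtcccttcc

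The Runx1 windows show the contrast most plainly, since the CpG-poor one lay under the locus's strongest peak and the CpG-rich one under a weaker one. Their WT peaks stood at percentiles 91.7 and 71.8 of the WT scores. The Mllt3 window with 29 CpG lay in a WT peak at percentile 87.7 that the authors assigned to a predicted model, so it is not among the Mllt3 peaks counted here. RefSeq gave 127 windows for 65 of the 85 loci, and windows of 1 gene can overlap. A WT peak touched 80 of them, or 63.0%, against 37.1% of all 32851 windows, and a cKO peak touched 67, or 52.8%, against 31.9%. Having a peak near the gene is part of how the loci were chosen, so the difference in WT is a description. Of the 67 windows touched by a cKO peak 66 were also touched by a WT peak, so the cKO difference follows from the same choice. Among windows touched by a WT peak, a cKO peak touched 82.5% at the loci against 85.3% of all.

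Short words that resemble binding motifs were counted in the 80 windows touched by a WT peak and in all 12200 windows so touched. Both strands were searched, and a window could count for more than 1 word. The ETS word CCGGAA occurred in 4 windows at the loci, or 5.00%, against 29.9% of all. The RUNX word TGTGGT occurred in 10.0% against 12.4%, the HMG word CTTTGA in 16.3% against 11.6%, and the NFAT word TTTCCA in 22.5% against 16.3%. The AP-1 word TGACTCA occurred in 5.00% against 3.30%, the forkhead word GTAAACA in 2.50% against 2.48%, and the CRE word TGACGTCA in 1.25% against 3.46%. The 80 windows came from 54 genes and are not independent. Median CpG number was 21 in both sets, and median GC content was 63.2% at the loci against 61.3%. Of the printed sequences, the Runx1 window with 35 CpG holds the ETS and NFAT words, the Runx1 window with 2 CpG the RUNX and NFAT words, the Foxp1 window with 5 CpG the HMG word, and the Foxp1 window with 13 CpG the NFAT word. A match is a word in a sequence and no measure of binding.

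Most named genes had few peaks. The median was 1 WT peak per named gene, and 7488 genes had exactly 1. Foxp1, a forkhead factor that keeps naive T cells quiescent, stood first with 31 peaks, and Bcl11b, a zinc finger factor of T cell commitment, followed with 21. Arid5b, Ext1, Sgms1 and Tox had 19 each, and Inpp4b, Prkch, Rora and St6gal1 had 18 each. At the lower end 27 loci had exactly 10 peaks, 18 had 11, 7 had 12, 10 had 13 and 7 had 14, which leaves 16 loci with 15 or more. The loci lay on 19 chromosomes, with 9 on chromosome 15 and 8 each on chromosomes 2 and 4.

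**Figure D1:**
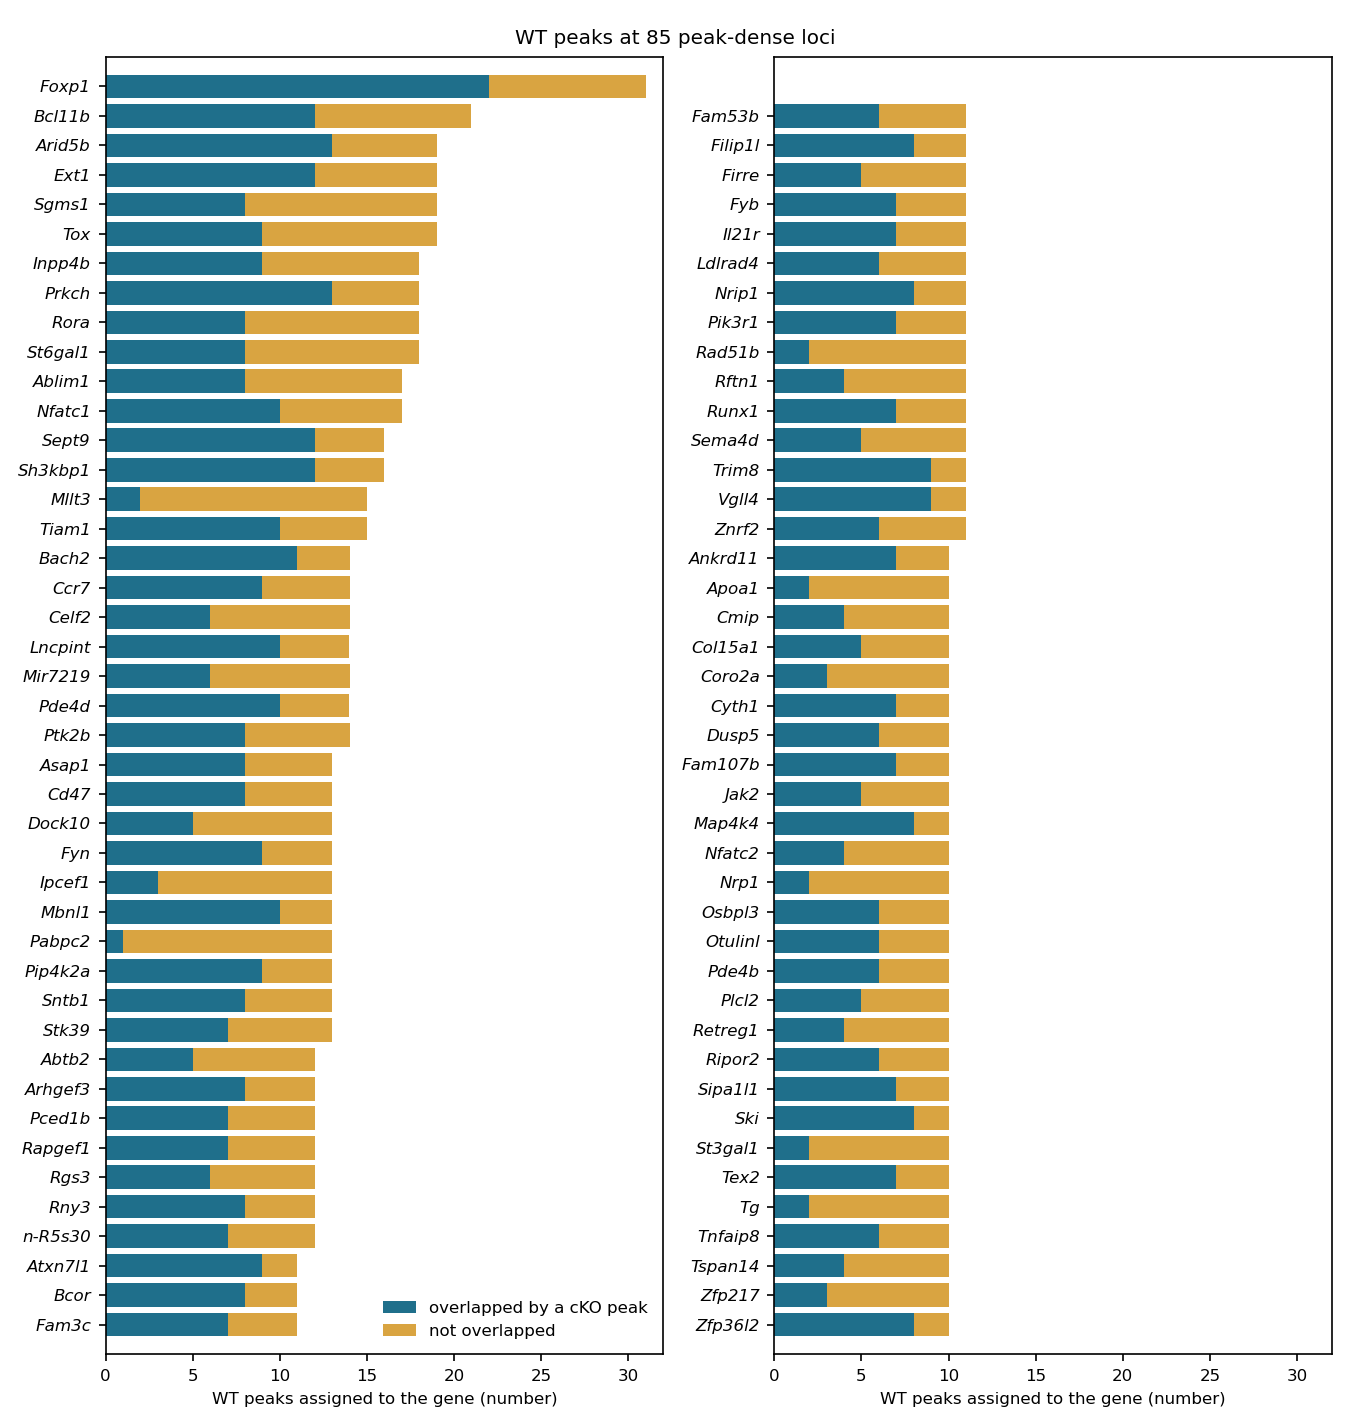
Number of WT peaks assigned to each of the 85 loci (horizontal axis), split into peaks that a cKO peak overlapped by 1 bp or more (dark) and peaks that none overlapped (light), with loci in order of their WT count. Foxp1 has 31 peaks, 22 of them overlapped, and Pabpc2 has 13, of which 1 was overlapped.

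The threshold of 10 does not separate distinct groups. The 29 named genes with 9 WT peaks, just outside the rule, had a median span of 85.3 kb, 18.8% promoter-class peaks, a median score percentile of 45.3 and 140 of 261 peaks overlapped by a cKO peak. The 27 loci with 10 peaks had a median span of 98.4 kb, 19.6% promoter-class peaks, a median percentile of 43.2 and 140 of 270 overlapped. The genes with 9 were Samsn1, Pgpep1l, Atxn7, Grap2, Peli1, Rbms1, Bicdl1, Setbp1, Ago2, Irf2bp2, Tnfrsf1b, Atp2b1, Sik1, Prex1, Heg1, Znrf3, Tnfaip3, Pum2, Usp6nl, Lclat1, Nedd4l, Smco4, Elk3, Gramd1b, St8sia1, Lrig1, Klf3, Lmnb1 and Mbd2.

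The loci were mostly long, and their peaks were spread out. From its first to its last peak a locus spanned a median of 122.7 kb (range 44.3 to 1452.8 kb), against 18.4 kb for named genes with 2 to 9 peaks. Such a span grows with the number of peaks, by which the loci were chosen, so this difference leans that way by construction. The RefSeq gene lengths of the 84 loci matched had a median of 143 kb, against 29.5 kb for genes with 2 to 9 peaks and 17.2 kb for genes with 1 peak. Peaks covered a median of 10.1% of the span, with a median of 9.29 peaks per 100 kb and a median gap of 7.26 kb between neighbouring peaks.

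The widest locus was Pde4d, a cyclic AMP phosphodiesterase with several promoters, whose 14 peaks were spread over 1452.8 kb at 0.964 peaks per 100 kb. Inpp4b, a lipid phosphatase, spanned 651.3 kb, Foxp1 567.2 kb, the nuclear receptor gene Rora 436.0 kb and the Rac activator gene Tiam1 370.9 kb. At the other end, 12 peaks assigned to the Y RNA gene Rny3 lay within 44.3 kb, at 27.1 peaks per 100 kb. The non-coding gene Firre had 11 peaks in 45.0 kb, the cytokine receptor gene Il21r 11 in 51.2 kb, the zinc finger gene Zfp217 10 in 54.7 kb and Cyth1, an activator of Arf GTPases, 10 in 55.4 kb. The most peaks in any 50 kb were 12, at Bcl11b, Ccr7 and Rny3.

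**Figure D2:**
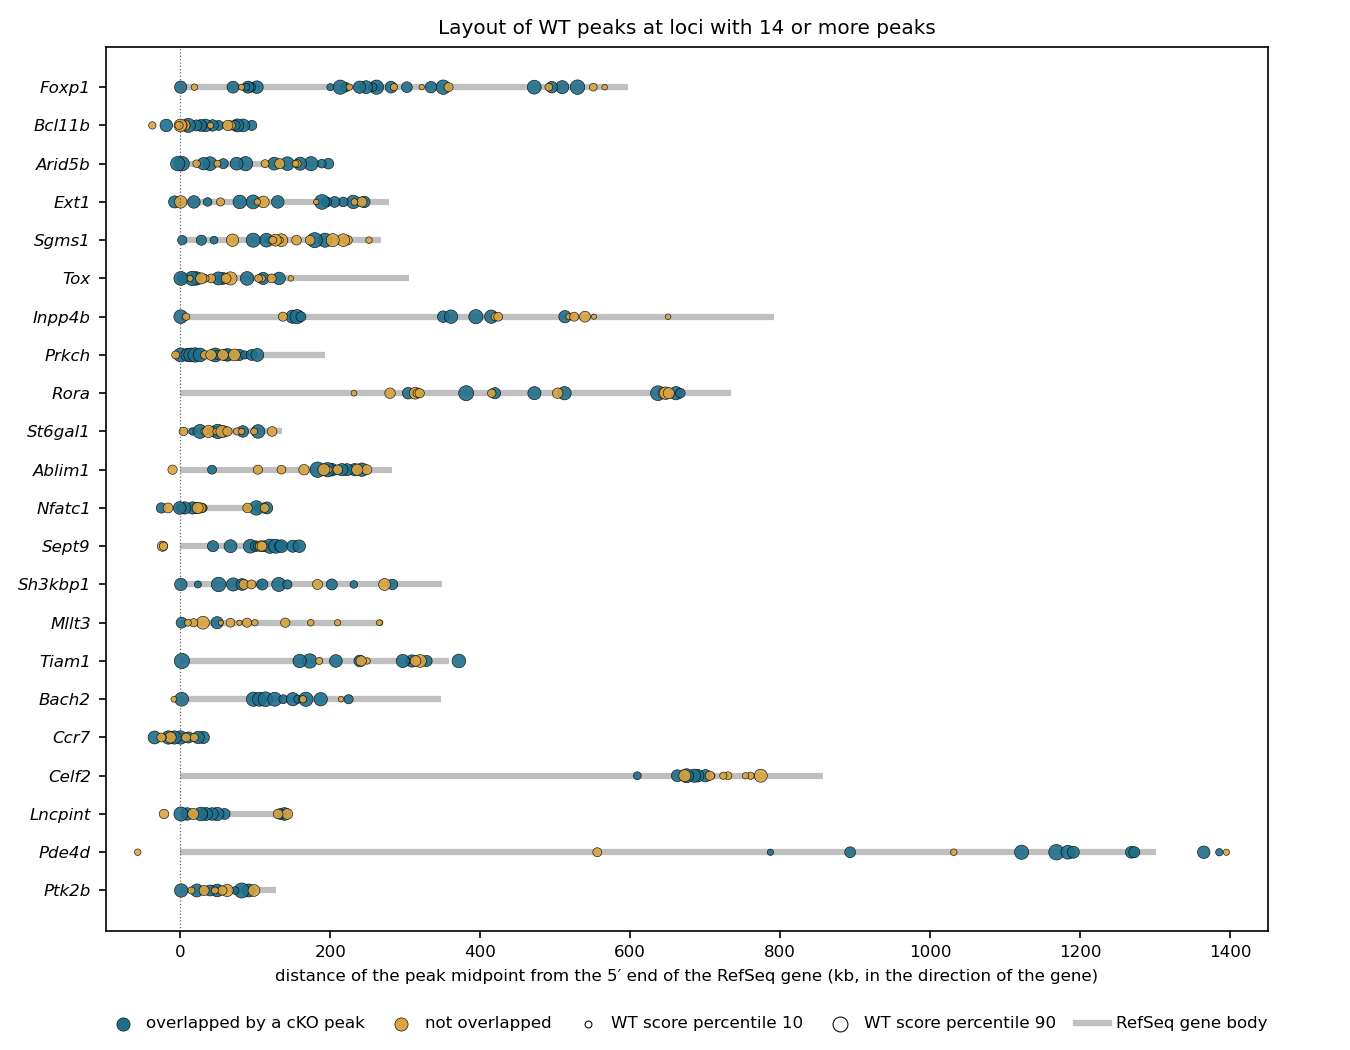
Position of each WT peak midpoint (horizontal axis, kb from the 5′ end of the RefSeq gene in the direction of the gene) at the loci with 14 or more peaks, Mir7219 left out because its gene is shorter than a peak. Dark points are peaks overlapped by a cKO peak, light points are not, a larger point has a higher WT score percentile, and grey bars are gene bodies; the peaks of Rora begin over 200 kb into the gene, while those of Ccr7 lie on both sides of a short one.

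Introns carried most of the peaks. Of the 1076 peaks, 703 (65.3%, 62.4 to 68.1) were in introns, 172 (16%, 13.9 to 18.3) were promoter class, within 3 kb of a transcription start, and 155 (14.4%, 12.4 to 16.6) were distal intergenic. In the other 33364 WT peaks the promoter class came first, with 45.5% promoter class, 25% intron and 20.8% distal intergenic. Exons held 2.42% against 5.04%. A gene has few promoters, so a list of genes with many peaks each has fewer promoter peaks by construction. Peaks lay farther from a start, with a median distance of 22.0 kb against 4.68 kb and 24.1% beyond 50 kb against 5.58%. Within introns, 41.0% of peaks at the loci were in the first intron, against 35.7% elsewhere.

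**Figure D3:**
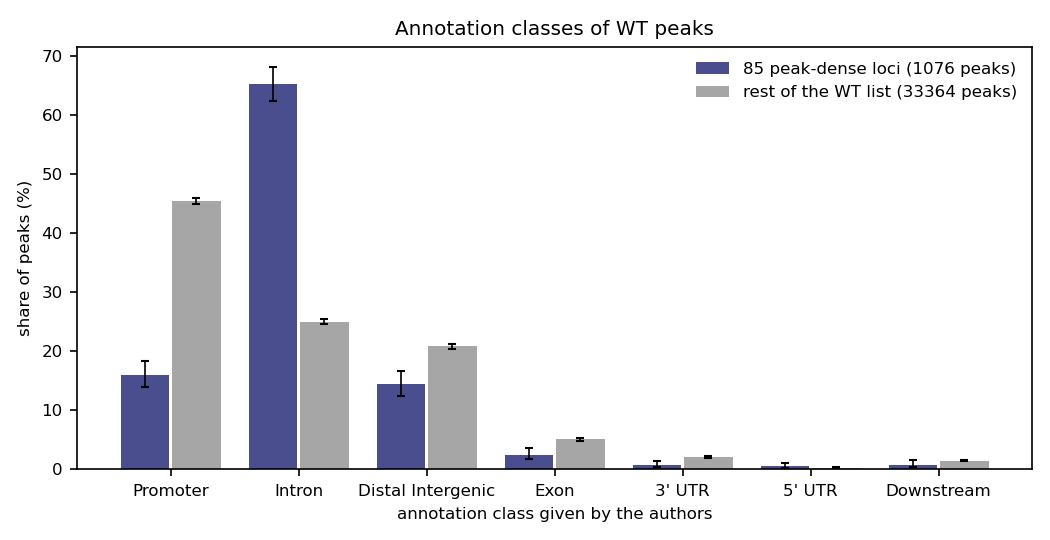
Share of WT peaks (vertical axis, percent) in each annotation class the authors gave, for the 1076 peaks at the 85 loci and the other 33364 WT peaks, with Wilson 95% intervals. Intron peaks make up 65.3% at the loci against 25% elsewhere, and promoter-class peaks 16% against 45.5%.

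The mix differed from locus to locus. All 13 peaks of Pip4k2a, a phosphoinositide kinase, were in introns, and all 13 of Pabpc2, a poly(A)-binding protein gene, were intergenic. Ccr7, the chemokine receptor for entry into lymph nodes, had 9 intergenic peaks, 2 intron peaks and 2 promoter-class peaks among its 14. Foxp1 had 24 intron peaks and 6 promoter-class peaks, as many promoter-class peaks as Tnfaip8, a regulator of cell death. A promoter-class peak was present at 79 loci, and Mir7219, Pabpc2, Pip4k2a, n-R5s30, Nrp1 and Sipa1l1 had none.

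Peaks at these loci were of middle to low score. The authors' score for a peak was turned into a percentile within the WT list. The median percentile was 44.4 (quartiles 22.7 and 65.3) against 50.2 for other WT peaks. Only 25 peaks (2.32%) were in the top decile of the list, against 10.2%, and they came from 22 loci. The bottom decile held 118 peaks (11%, 9.24 to 13) from 67 loci, against 9.97% of other WT peaks. That interval includes the share of the other peaks, so the bottom decile showed no clear excess. The direction depended on class, because promoter-class peaks at the loci stood lower than others (57.4 against 71.4), while intron peaks (42.0 against 34.5) and intergenic peaks (44.6 against 39.2) stood higher. Intron peaks were also wider at the loci, with a median of 948 bp against 816 bp.

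Score fell gradually from the strongest peak of a locus to the next. The median percentile over the 85 loci was 83.2 for the strongest peak, then 75.1, 68.2, 61.5 and 56.2 for ranks 2 to 5. The strongest peak was in an intron at 42 loci, promoter class at 32, intergenic at 8, in an exon at 2 and in a 5′ UTR at 1. The highest scores were at Rny3, where an intergenic peak 23 kb upstream scored 581.2, at percentile 99.97, and at Filip1l, whose intron peak scored 296.6, at 98.6. Next came Apoa1, the main protein of high-density lipoprotein, at 281.5 in an intron of the neighbouring gene Sik3, then the promoter of the DNA repair gene Rad51b at 280.9 and an exon of Ablim1, an actin-binding LIM protein, at 278.1. The lowest maximum was at Tg, the thyroglobulin gene, whose strongest peak stood at percentile 49.7. Bach2, a repressor of effector genes in T cells, had the highest median percentile, 69.6, and Mllt3, a reader of acetylated histones, the lowest, 10.2.

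Over all classes, WT peaks at the loci were overlapped by a cKO peak as often as others. A WT peak counted as overlapped when a cKO peak shared at least 1 bp with it. This held for 604 of 1076 peaks (56.1%, 53.2 to 59.1) at the loci, for 56.1% (55.5 to 56.6) of the other WT peaks and for 56.1% of the whole WT list. With both lists limited to peaks above their own median score, the share was 46.6% (218 of 468) at the loci against 57.3% elsewhere. The cKO list was the shorter one, with 19680 peaks, and read depth was unknown, so a peak that was not overlapped cannot be told apart from one below the calling threshold.

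By class the shares differed. Among intron peaks 372 of 703 at the loci were overlapped (52.9%, 49.2 to 56.6), against 38.7% (37.7 to 39.8) of other intron peaks and 39.8% of all intron peaks in the list. Among intergenic peaks it was 80 of 155 (51.6%, 43.8 to 59.3) against 42.7% (41.5 to 43.8), with 42.9% over the list. Promoter-class peaks at the loci were overlapped in 125 of 172 cases (72.7%, 65.6 to 78.8), against 74.4% of others and 74.3% over the list. For exon, UTR and downstream peaks combined it was 27 of 46 (58.7%, 44.3 to 71.7) against 42.5% (40.7 to 44.3). The 2 intervals did not meet for intron peaks, met for promoter-class and intergenic peaks, and for the remaining classes their nearest bounds were alike to 1 decimal.

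Overlap was higher at higher scores, from 10.2% (12 of 118) of the loci's peaks in the lowest decile to 100% (25 of 25) in the highest. To set like beside like, each peak was given the overlap of WT peaks outside the loci with the same class and score decile. These like peaks came to 48.9%, which leaves the loci 7.19 percentage points higher. This average was not even over the scores. Over all classes, shares in deciles 2, 5 and 6 were 25.2%, 60.2% and 71.5% at the loci, against 13.6%, 46.5% and 63.0% elsewhere. In deciles 7, 8 and 9 they were close, at 83.5%, 96.6% and 97.1% against 83.7%, 94.7% and 98.8%. With score alone the gap was 6.10 points, with class alone 11 and with width added 5.17. The same measure by number of peaks was -1.12 points for named genes with 1 peak, -0.55 for 2 to 4, 2.51 for 5 to 9, 5.46 for 10 to 13 and 9.11 for 14 to 31. Genes with 1 to 9 peaks are themselves part of the like peaks. Only the values at 10 to 13 and 14 to 31 therefore have an outside reference. Peaks of 1 locus share their surroundings and are not independent. For 24 predicted models, whose peaks are also part of the like peaks, the gap was 6.19 points at 10 to 13 peaks and -6.59 at 14 to 31.

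**Figure D4:**
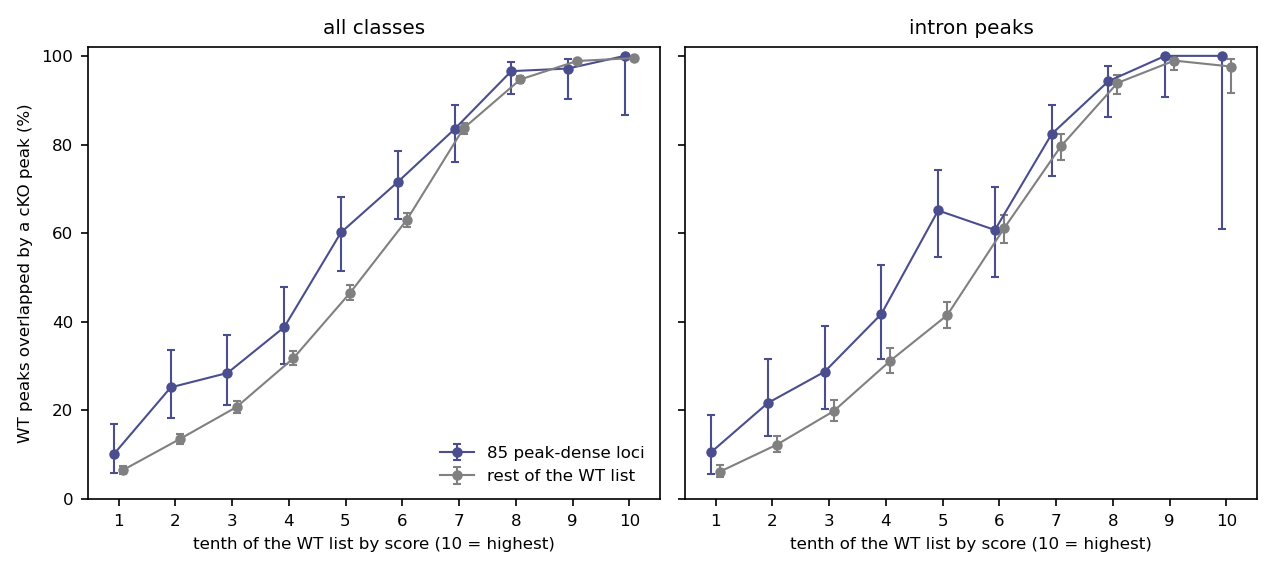
Share of WT peaks with a cKO overlap (vertical axis, percent) in each decile of the WT list by score (horizontal axis, 10 highest), for the 85 loci and the other WT peaks, over all classes (left) and intron peaks (right), with Wilson 95% intervals. Over all classes, 25.2% of peaks at the loci were overlapped in decile 2, against 13.6% elsewhere. In decile 7 it was 83.5% against 83.7%, and in the top decile all 25 at the loci were overlapped.

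Every locus had some WT peaks overlapped and none had all of them overlapped. The share overlapped had a median of 60.0% per locus and ran from 7.69% to 81.8%, above 50% at 54 loci, at 50% at 5 and below at 26. The strongest peak was overlapped at 81 of 85 loci (95.3%) and the weakest at 12 (14.1%). Strongest peaks had a median percentile of 83.2, and WT peaks outside the loci in deciles 8 and 9 were overlapped at 94.7% and 98.8%. Weakest peaks had a median percentile of 4.26, and WT peaks outside the loci in decile 1 were overlapped at 6.55%. Going down the ranks, the fifth strongest peak was overlapped at 68.2% of loci and the tenth at 24.7%. The 4 loci whose strongest assigned peak was not overlapped were Mllt3, Znrf2, Cmip and Coro2a. For Mllt3 this leaves out the stronger promoter peak that was assigned to a predicted model. Set against its like peaks, the share was higher at 59 loci and lower at 26, and the interval of the share lay wholly above that of the like peaks at 3, Foxp1, Sh3kbp1 and Nrip1, and below it at none.

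Transcription and chromatin regulators made up 17 loci with 249 WT peaks, of which 150 were overlapped (60.2%, 54.1 to 66.1), against 48.5% for like peaks. Foxp1 had 31 WT and 23 cKO peaks, and 22 of its WT peaks were overlapped (71.0%, 53.4 to 83.9), against 45.5% for like peaks. Its strongest peak, chr6:98992466-98993883 in intron 8 of 17, stood at percentile 85.2 of the WT list and was overlapped by a cKO peak at percentile 69.4 of its own list. The next, chr6:99171496-99173095 in intron 2, stood at 83.9 and its cKO partner at 86.8. Of its 9 peaks without a cKO partner the highest stood at percentile 25.7, so the WT-only peaks of Foxp1 were all weak ones.

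Bcl11b had 21 WT and 12 cKO peaks, and its 12 overlapped peaks did not include any of its 3 promoter-class peaks. The middle one of these, at -453 bases from the start, stood at percentile 61.4. The overlapped peaks lay in the gene body, downstream of it and 19 kb upstream, and the strongest, at percentile 80.2, was in intron 1. Tox, an HMG-box factor of CD4 T cell development, had 19 WT and 8 cKO peaks with 9 overlapped, near its like peaks (47.4% against 49.7%). Rora had 18 and 8 with 8 overlapped (44.4% against 52.0%). Bach2 had 14 and 11 with 11 overlapped (78.6% against 59.4%), and 8 of these stood next to each other in intron 2 and at the promoter.

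The NFAT genes encode factors that enter the nucleus after calcium signals. Nfatc1 had 17 WT and 9 cKO peaks with 10 overlapped (58.8%, like peaks 40.7%), and Nfatc2 had 10 and 4 with 4 overlapped (like peaks 44.2%). Runx1, which acts with CBF-beta, had 11 and 7, and all 7 cKO peaks met WT peaks, including both promoters whose sequences are shown above. Arid5b, a DNA-binding partner of a histone demethylase, had 19 and 13 with 13 overlapped. The Runx1 and Arid5b peaks without a partner all stood below percentile 35.

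The share was low at Mllt3. Mllt3 had 15 WT peaks and 2 cKO peaks, and 2 WT peaks were overlapped (13.3%, 3.74 to 37.9), with 7 of the 15 in the bottom decile of scores. Its like peaks were overlapped at 21.4%, inside that interval. The strongest assigned peak, chr4:88002941-88003820 in intron 2 of 10, stood at percentile 64.1 and had no cKO partner. The higher-scoring WT peak over its CpG-rich promoter window, described above, was assigned to a predicted model and is not counted here. A cKO peak touched that window.

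The other transcriptional loci were smaller. Atxn7l1, a relative of a SAGA complex subunit, and Vgll4, a cofactor of TEAD proteins, had 11 WT peaks with 9 overlapped each (81.8%), the highest shares together with Trim8. Their like peaks were overlapped at 70.1% for Atxn7l1, 56.7% for Vgll4 and 52.4% for Trim8. The Polycomb-associated corepressor gene Bcor and the nuclear receptor corepressor gene Nrip1 had 8 of 11 overlapped each, against 46.4% and 40.3% for like peaks. Ski, a corepressor of SMAD proteins, had 8 of 10, Ankrd11, a chromatin regulator, 7 of 10, and Zfp217 3 of 10, none of its 3 promoter-class peaks among them. Like peaks of these loci stood at 66.1%, 56.9% and 29.1%.

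Kinases, phosphatases and second messenger enzymes formed 16 loci with 127 of 203 peaks overlapped (62.6%, 55.7 to 68.9), against 50.7% for like peaks. Prkch, the eta isoform of protein kinase C, had 18 WT and 13 cKO peaks with 13 overlapped, 10 of the 18 within 50 kb, and peaks covered 24.6% of its span. Its promoter and the peaks of its first intron included 5 overlapped in a row at percentiles from 69.3 to 83.3. Inpp4b had 18 and 9 with 9 overlapped, and 7 overlapped peaks in a row lay in introns 2 and 4. Sh3kbp1, an adaptor of receptor internalisation, had 16 and 12 with 12 overlapped (75%, 50.5 to 89.8, like peaks 45.3%).

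Pde4d had 14 WT and 10 cKO peaks with 10 overlapped (71.4%), 8 in a row, and its relative Pde4b had 10 and 7 with 6 overlapped. The tyrosine kinase gene Ptk2b had 14 and 9 with 8 overlapped, the Src family kinase gene Fyn 13 and 8 with 9 overlapped, and Fyb, an adaptor of integrin activation, 11 and 7 with 7 overlapped. Map4k4, a kinase upstream of JNK, had 8 of 10 overlapped, Pip4k2a 9 of 13 (69.2%, like peaks 44.1%), and Pik3r1, the regulatory subunit of phosphoinositide kinase, 7 of 11. Stk39, a kinase of ion transport, had 7 of 13, Rgs3, an inhibitor of G protein signals, 6 of 12, Dusp5, a phosphatase of ERK, 6 of 10, and the cytokine receptor kinase gene Jak2 and the phospholipase-like gene Plcl2 5 of 10 each. None of the 16 loci fell below 50%, but Stk39, Rgs3, Jak2 and Plcl2 stood below their like peaks (57.0%, 52.4%, 53.4% and 50.7%).

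Small GTPase regulators and cytoskeletal genes formed 14 loci with 100 of 175 peaks overlapped (57.1%, 49.7 to 64.2), against 47.6% for like peaks. Ablim1 had 17 WT and 8 cKO peaks with 8 overlapped. The septin gene Sept9 had 16 and 13 with 12 overlapped (75%), and Tiam1 had 15 and 10 with 10 overlapped. The Rap activator gene Rapgef1 had 7 of 12, the nucleotide exchange factor gene Arhgef3 and the Arf GTPase-activating gene Asap1 8 of 12 and 8 of 13, Sntb1, a syntrophin, 8 of 13, and Filip1l, a filamin-binding protein, 8 of 11. Cyth1 and the Rap inhibitor gene Sipa1l1 had 7 of 10 each, and Ripor2 6 of 10.

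Shares in this group were lowest at 3 loci. Coro2a, a coronin, had 3 of 10, Ipcef1, which binds cytohesin, 3 of 13, and Dock10, a nucleotide exchange factor, 5 of 13. The peaks of Ipcef1 stood low, at a median percentile of 19.2, and its like peaks were overlapped at 22.8%.

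Surface receptors and ligands formed 6 loci with 35 of 69 peaks overlapped (50.7%, 39.2 to 62.2), against 48.1% for like peaks. Ccr7 had 14 WT and 8 cKO peaks with 9 overlapped, both promoter-class peaks among them, and its strongest peak, at the start, stood at percentile 71.0. Cd47, a signal that limits uptake by macrophages, had 13 and 9 with 8 overlapped. Il21r had 11 and 7 with 7 overlapped. The semaphorin gene Sema4d had 5 of 11 overlapped and the tetraspanin gene Tspan14 4 of 10.

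Nrp1, a semaphorin and VEGF co-receptor used as a marker of thymus-derived Treg cells, had 10 WT and 3 cKO peaks with 2 overlapped. All of its WT peaks lay inside the gene, from intron 2 to intron 12, and none was promoter class. The overlapped pair were its strongest, at percentiles 64.1 and 53.0, and the other 8 stood at 42.3 or lower.

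Glycan and lipid enzymes formed 4 loci with 30 of 66 peaks overlapped (45.5%, 34 to 57.4), against 44.1% for like peaks. Ext1, which extends heparan sulfate chains, had 19 WT and 12 cKO peaks with 12 overlapped, and its single promoter-class peak was not among them. The sphingomyelin synthase gene Sgms1 had 19 and 9 with 8 overlapped. The sialyltransferase genes St6gal1 and St3gal1, which cap glycans on surface proteins, had 8 of 18 and 2 of 10 overlapped. Neither of the 2 promoter-class peaks of St6gal1 was overlapped.

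RNA-binding proteins formed 4 loci with 25 of 50 peaks overlapped (50.0%, like peaks 50.2%), and they differed widely. The splicing regulator gene Mbnl1 had 10 of 13 (like peaks 61.1%) and Celf2, another splicing regulator, 6 of 14 (like peaks 43.3%). Zfp36l2, which promotes decay of AU-rich messenger RNAs, had 8 of 10 (like peaks 71.2%). Pabpc2 had 13 WT peaks and 1 cKO peak, and 1 of 13 was overlapped (7.69%), the lowest share of the loci, against 30.4% for like peaks. Its peaks lay up to 137 kb from the start, in intergenic sequence on both sides of a gene shorter than 3 kb.

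Non-coding RNA genes formed 5 loci with 36 of 63 peaks overlapped (57.1%, 44.9 to 68.6), against 53.5% for like peaks. Lncpint, a long non-coding RNA, had 14 WT and 11 cKO peaks with 10 overlapped. Firre, a long non-coding RNA of the X chromosome with repeats in its introns, had 11 and 5 with 5 overlapped, and 10 of its 11 peaks stood between percentiles 36.1 and 71.1, with its promoter-class peak at 11.3. Rny3 had 12 and 8 with 8 overlapped, n-R5s30, a gene of the ribosomal 5S type, 12 and 7 with 7 overlapped, and the microRNA gene Mir7219 14 and 7 with 6 overlapped. Of the last 3 loci only Rny3 had promoter-class peaks, 2 in number.

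Genes best known from other tissues were also present. Apoa1 (liver and intestine), Tg (thyroid) and Col15a1 (a basement membrane collagen) had 30 WT peaks together, of which 9 were overlapped (interval 16.7 to 47.9%), against 43.6% for like peaks. Apoa1 had 10 WT and 2 cKO peaks, and 9 of the 10 lay inside Sik3, a kinase gene next to it. Tg had 10 and 2 with 2 overlapped, its peaks lay within the gene, in a span that the coding gene Sla also touches, and none stood above percentile 49.7. Col15a1 had 10 and 5 with 5 overlapped.

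The remaining 16 loci have mixed roles, and 92 of their 171 peaks were overlapped (53.8%, 46.3 to 61.1), against 50.0% for like peaks. The ubiquitin ligase gene Trim8 had 11 WT and 9 cKO peaks with 9 overlapped (81.8%). Fam107b and Tex2, a lipid transfer protein of the endoplasmic reticulum, had 7 of 10 each. Fam3c, a secreted protein gene, and Pced1b had 7 of 11 and 7 of 12, and Osbpl3, an oxysterol-binding protein, Otulinl and Tnfaip8 6 of 10 each. Fam53b, Ldlrad4, an inhibitor of TGF-beta signals, and the ubiquitin ligase gene Znrf2 had 6 of 11 each.

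Shares were lower at Abtb2 (5 of 12), at Cmip and Retreg1 (4 of 10 each), Retreg1 being a receptor for autophagy of the endoplasmic reticulum, and at the lipid raft gene Rftn1 (4 of 11). Rad51b had 11 WT and 2 cKO peaks with 2 overlapped (18.2%, like peaks 42.1%). They were its promoter, at percentile 98.1, and 1 of the 10 peaks in intron 7. The other 9 intron peaks, at percentiles from 6.26 to 64.1, had no cKO partner.

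In the cKO list the same loci held 612 of 19680 peaks (3.11%), close to their 3.12% of the WT list, with a median of 7 per locus and a range of 1 to 23. Each of the 85 had fewer cKO than WT peaks, but loci chosen for many WT peaks and set beside a shorter list lean that way by construction, so nothing is read from it. Of the 9832 named genes with a cKO peak, 13 (0.132%) had 10 or more, and all 13 were among the loci: Foxp1, Sept9, Prkch, Arid5b, Ext1, Sh3kbp1, Bcl11b, Bach2, Lncpint, Tiam1, Pde4d, Mbnl1 and Vgll4. Nearly all cKO peaks met a WT peak, so a gene with many cKO peaks leans toward many WT peaks by construction. Nothing is read from this either. A WT peak overlapped 601 of the 612 (98.2%), against 97.6% of all cKO peaks. The 11 without a WT partner were at Sgms1, with 2, and at Cd47, Celf2, Ipcef1, Ldlrad4, Mir7219, Nrp1, Ripor2, Sept9 and Vgll4, with 1 each. Promoter-class peaks made up 20.1% of cKO peaks at the loci, against 59.0% of others.

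Several lists of T cell genes were set beside the loci. They were compiled with earlier results of these data known, so their counts are descriptions, to be read beside the 0.685% of all named genes with a WT peak that were peak-dense. Of 90 transcription factor genes of T and Treg cells with a WT peak, 9 (10.0%) were peak-dense: Foxp1, Bcl11b, Tox, Runx1, Rora, Bach2, Nfatc1, Nfatc2 and Mllt3. Of 56 genes of T cell receptor signalling, 6 (10.7%) were: Fyn, Prkch, Dusp5, Nfatc1, Nfatc2 and Arhgef3. Among 37 homing genes there were Ccr7 and St6gal1, among 43 cytokine receptor genes Il21r and Jak2, among 53 chromatin genes Arid5b and Bcor, among 34 survival and cell cycle genes Tnfaip8, and among 35 Treg identity genes Nrp1. None of the 11 pentose phosphate pathway genes with a WT peak was peak-dense, and the most any of them had was 5 peaks. Of 12 genes usually silent in lymphocytes that had a WT peak, 1 (8.33%) was peak-dense, Apoa1.

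The labelled cell type was checked against its markers. Foxp3, Il2ra, Ctla4, Ikzf2, Cd4, Cd3e, Cd3d and Lck had a peak in both libraries, and Cd3g had none in either. None of the loci was on the B cell, myeloid, CD8 T and NK, or erythroid and stromal marker lists, of which 6 of 14, 10 of 19, 5 of 14 and 5 of 13 genes had a WT peak. The part of such cells in the counts above was not tested.

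Peak density depends on which gene a peak is given to. The authors' annotation names a gene for an intron or exon peak, and for 658 of 729 such peaks (90.3%) it was the locus's own gene. At 8 loci the annotation named another gene for most of these peaks: Ldlrad4 at Mir7219, Sik3 at Apoa1, Fgfr2 at Fam53b, Oprm1 at Ipcef1, Sufu at Trim8, Thada at Zfp36l2, and predicted models at Ankrd11 and n-R5s30. The named gene is not always where the peaks lie. By RefSeq body, the own gene held 10 of 11 peaks of Fam53b, 10 of 10 of Ankrd11 and 11 of 13 of Ipcef1. It held 2 of 11 of Trim8, 1 of 10 each of Apoa1 and Zfp36l2, and 0 of 14 of Mir7219. No other coding gene touched the Fam53b span. The peaks of Mir7219 and Ldlrad4 adjoin, with 21.8 kb between them, so these 2 loci are parts of 1 stretch.

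Counting instead the peaks whose midpoint lay in the body of each RefSeq coding gene gave 192 genes with 10 or more, of which 56 were among the 85 loci and 136 were not. This count was added after the data were seen. Foxp1 had 46 peaks against 31 assigned, 35 of the 46 overlapped. Inpp4b had 40 against 18, with 18 of the 40 overlapped, Rad51b 27 against 11, with 10 overlapped, and Bach2 24 against 14, with 20 overlapped. Bcl11b had 16 against 21, since 5 of its peaks lie outside the gene. Genes that the assigned count misses included Ikzf2, the Helios gene of Treg cells, with 26 peaks in its body, 9 of them overlapped, against 7 assigned. Akap13 had 26 against 2, Prkca 25 against 5, the ETS factor gene Ets1 19 against 5 and the survival gene Bcl2 16 against 3. The 10 genes named for this count were chosen after their values were seen.

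**Figure D5:**
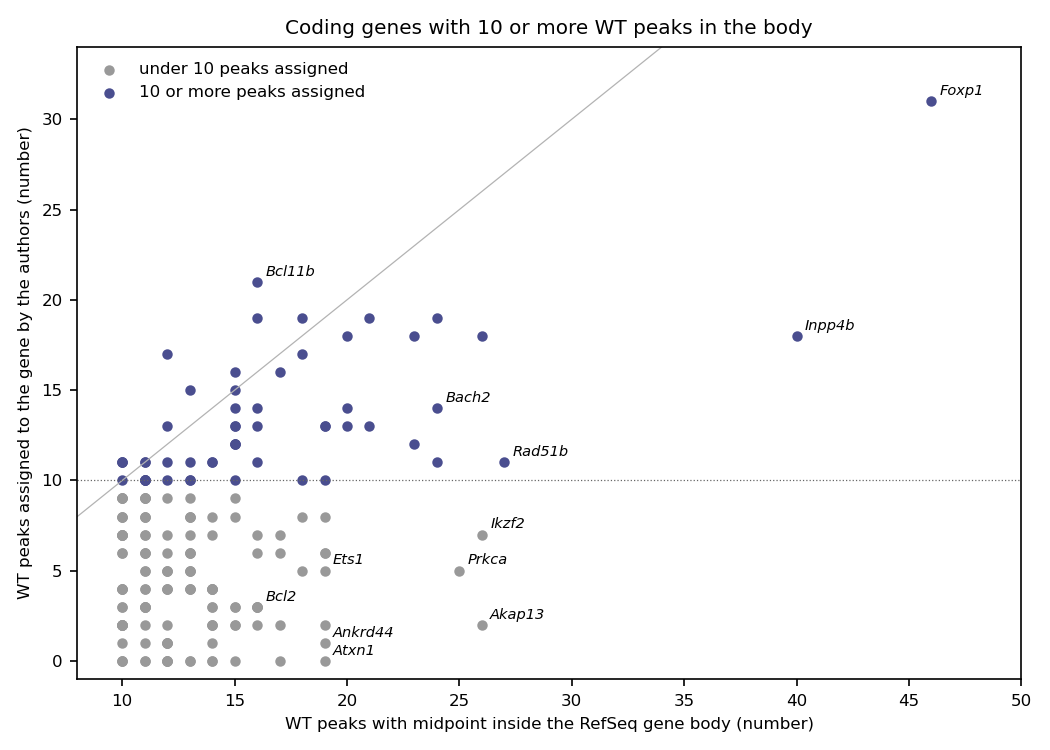
WT peaks assigned to a gene by the authors (vertical axis) against WT peaks with their midpoint in its RefSeq body (horizontal axis) for the 192 coding genes with 10 or more in the body. Dark points are among the 85 loci and light points had under 10 assigned peaks, the solid line marks equal numbers and the dotted line 10 assigned peaks; Ikzf2, with 26 in the body and 7 assigned, lies well below the line.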

How the data were processed

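The data are 2 deposited peak lists, 1 per ATAC-seq library (WT_Treg and TKT_cKO_Treg, replicate 1 each), grouped by sample title and genotype. Per the submitters' processing notes, the authors used Trimmomatic, FastQC, BWA and MACS2 with build mm10, with versions, settings, duplicate removal and any Tn5 offset shift not given in the sources used here. Per the file headers, the authors deposited for each peak a position, a width, a score, an annotation class, 1 gene and its distance to a transcription start. The meaning of the score is not stated, so it only ranked peaks within its own list, as percentiles and deciles (10 equal parts). Peaks were called per library, not on pooled reads. Read depth is unknown, and with it the precision of a missing peak.

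Gene symbols with 10 or more WT peaks were taken as loci. Overlap needed 1 bp and gave the same result as bedtools 2.31.1 at all 34440 WT peaks, with 0 differing. Like peaks shared class group (promoter, intron, intergenic, other) and score decile. This measure was run on simulated data in which each peak was drawn independently at the rate of its class and score decile. That run checks the calculation only and does not cover peaks that share a locus. Gene bodies and promoter windows came from RefSeq GRCm38.p6. The strand of the windows was checked on 1672 pairs. Python 3.11.15 and pandas 2.3.3 were used. Members and gene lists were chosen with earlier results of these data known, and role groups after the members were known. The genes named were all members, the genes with 9 peaks, the extremes of count, share, span and score (10 by count, otherwise 5 at each end), and the members of the fixed lists. Alternatives covered the minimum number of peaks, predicted models, merging of close peaks, distance, overlap, score, width and list length.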

Additional observations from a re-analysis of the deposited data

How the results depend on the processing

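No paired analysis was possible because each genotype has 1 library, and for the same reason no replicate could be left out. The number of loci is set by the minimum: 177 loci with 1841 peaks at 8 peaks, and 40 loci with 608 peaks at 12, where promoter-class peaks made up 13.7%. With promoter class limited to 1 kb of a start the promoter share was 12.2%. When the WT list was cut by score to the length of the cKO list, 8 loci had 10 or more peaks (Foxp1, Prkch, Rora, Arid5b, Bcl11b, Ext1, Tiam1 and Tox), and 82.4% of member peaks were overlapped, against 83.0% elsewhere. With peaks scored above the median in each list only, the share was 46.6% against 57.3% elsewhere, and with WT peaks at least as wide as the narrowest cKO peak it was 60.7% against 60.9%. Counting in RefSeq gene bodies gave 192 genes, 51.9% overlapped and 41 genes with 10 or more cKO peaks. With a minimum of 8, 37 loci had that many cKO peaks. The gap to like peaks was positive in the alternatives for which it was computed, from 5.17 to 7.29 points, with 6.65 without Foxp1 and 6.04 at equal list length. It was not computed for peaks scored above the median, where the raw share was lower at the loci than elsewhere. An overlap of at least 50% of the shorter peak gave 55.2%. Shares of single loci moved beyond their interval at 54 of 85 with the shortened WT list, at 1 with wide peaks and at 0 with the stricter overlap. With peaks above those medians they moved at 33 loci and stayed at 51, and Tg had no such peak. The cause of these shifts was not tested. Leaving out Foxp1, leaving out the 8 loci for whose intron and exon peaks the annotation mostly names another gene, and the gene body count were chosen after seeing the data.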

Other observations

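The rule left out 24 predicted models with 10 or more WT peaks. They held 279 peaks, of which 139 (49.8%) were overlapped by a cKO peak. In the authors' deposited annotation, many of these peaks stood in an intron or exon of another gene, which is what lying in a gene means here. Of the 19 peaks of 9430078K24Rik 16 lay in Rad51b, and 9 of the 19 were overlapped. Of the 12 of Gm8075 9 lay in Prkch, and 3 of the 12 were overlapped. Gm20705 had 10 peaks, 9 of them in Foxp1, and all 10 were overlapped. Gm27240 had 10 of its 13 peaks in the ETS factor gene Ets1, with 9 of 13 overlapped, and Gm23513 had 9 of 10 in the ubiquitin ligase gene Cblb, with 8 of 10 overlapped. Lower shares were seen for Gm11655 (4 of 14 overlapped, 13 of 14 in the protein kinase C alpha gene Prkca), for Gm43430 (3 of 10 overlapped, all 10 in the NF-kappaB subunit gene Nfkb1) and for Gm37549, which touches no coding gene (1 of 11).

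Among the 136 coding genes with 10 or more WT peaks in the body that are not peak-dense by assignment, 891 of 1760 peaks were overlapped (50.6%, 48.3 to 53.0).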
